A study of Homo sapiens with 6 samples.

Results

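Cholesterol and fatty acid synthesis was followed through 38 listed genes of the sterol regulatory element binding protein (SREBP) system in A431, a line of human epidermoid carcinoma cells known for its abundant epidermal growth factor receptor (EGFR). The members were taken from the list by gene symbol, with the brightest probe set per gene. Of the 38 listed genes, 34 had a probe set among the 17687 named genes of the arrays, each by a single probe set. FDFT1, ACSL3, FADS1 and LPIN1 were not analysed here. Gene expression was measured on 6 arrays, 2 in each of 3 groups. Cells of the EGF plus gefitinib group received the EGFR ligand EGF at 100 ng/ml together with gefitinib at 10 µM, which blocks the kinase of EGFR. The EGF group received the same dose of EGF, and the control group was left untreated. A single protocol text covers all samples and gives growth with 10% fetal bovine serum, starvation for 24 h and harvest 30 min after treatment. Whether gefitinib went on before or with EGF is not stated. The labels call the arrays of each group biological replicates without naming separate cultures, so the p-values reflect no more than the scatter of these arrays, which may be technical.

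Cells make cholesterol from acetyl-CoA through the mevalonate pathway, which ends in isoprenoid building blocks, and through the squalene branch, which folds squalene into a sterol ring and trims it to cholesterol. Fatty acids are built from the same acetyl-CoA. SREBP proteins are membrane-bound transcription factors that SCAP escorts from the endoplasmic reticulum to the Golgi for cleavage when sterols are low, and INSIG proteins hold SCAP back when sterols are high. SREBP2, made from SREBF2, acts mainly on cholesterol genes, and SREBP1, made from SREBF1, mainly on fatty acid genes, although their targets overlap. Members are therefore called SREBP2-type (21 listed, 20 measured: sterol synthesis and transport) or SREBP1-type (12 listed, 9 measured: fatty acid synthesis), and the 5 regulators INSIG1, INSIG2, SREBF1, SREBF2 and SCAP were kept apart.

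All values are log2 expression values as deposited, and changes are differences of group means ± standard error (SE), from a limma model of all 6 arrays. A change passed the test at an adjusted p under 0.05 over the 21448 transcript probe sets. The arrays were alike in scale, with medians of 6.07 to 6.16 and 38.4% to 42.1% of probe sets above the negative-control limit, defined on each array as the 95th percentile over its negative controls. Of the 34 members, 32 lay above this limit on all 6 arrays, while NPC1L1 and ACACB lay below it on all 6, so they have only an upper bound. The epithelial markers of the line, such as KRT5, KRT14 and CDH1, were above the limit on every array (7 of 7 measured). EGFR measured 15.26 and 15.36 with EGF plus gefitinib, 14.44 and 14.44 with EGF, and 14.42 and 14.38 in control. It was higher with EGF plus gefitinib than with EGF (0.87 ± 0.17, adjusted p = 0.0125) and than in control (0.91 ± 0.17, adjusted p = 0.0372). KRT18, an epithelial keratin, was 2.83-fold lower with EGF plus gefitinib than with EGF (adjusted p = 0.0019) and rose with EGF against control (1.32 ± 0.18, adjusted p = 0.00526). SFN, an epithelial 14-3-3 protein, was 4.27-fold lower with EGF plus gefitinib than with EGF (adjusted p = 0.000612) and 2.10-fold lower than in control (adjusted p = 0.0254), and rose 2.03-fold with EGF (adjusted p = 0.0118). The 7 markers of the line summed to 252210 to 259621 linear units with EGF plus gefitinib, 405737 to 422930 with EGF and 278213 to 279822 in control, so their sum was also highest with EGF. Of 24 measured markers of other cell types 19 were above the limit on no array, among them PTPRC, PECAM1 and COL1A1, and so were all 10 adipocyte and hepatocyte markers, which stand for the cell types known for making much lipid. LCP1, CD68 and LUM were above it on all 6 arrays. The 5 leukocyte markers summed to 6656 to 8862 linear units with EGF plus gefitinib, 16948 to 17431 with EGF and 10428 to 10547 in control, so this sum moved in the same direction as most members. LCP1 was 4.72-fold lower with EGF plus gefitinib than with EGF (adjusted p = 0.000796) and rose 2.69-fold with EGF against control (adjusted p = 0.00656), CD68 differed by −0.49 ± 0.21 and 0.19 ± 0.21, and PTPRC, CD3E and CD14 were below the limit on all arrays. The 5 fibroblast markers summed to 533 to 722 with EGF plus gefitinib, 471 to 599 with EGF and 1009 to 1082 in control, and the 4 endothelial markers to 258 to 280, 79.7 to 98.7 and 180 to 230 in the same order of groups. Their part in the results was not tested.

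Part of the cholesterol pathway was higher with EGF than in control, and more of it was lower with EGF plus gefitinib than with EGF. With EGF plus gefitinib against EGF, 16 of the 34 members were lower (47.1%) and 1 was higher, SREBF1. Over all probe sets, 18.7% passed the test in this comparison, 9.81% lower and 8.86% higher. With EGF against control, 8 members rose (23.5%) and 2 fell, where 11.9% of all probe sets passed, 6.61% higher and 5.3% lower. The members that fell with EGF were SREBF1 and TM7SF2. With EGF plus gefitinib against control, 4 members were lower (11.8%) and 0 higher in the limma test, against 3.89% of all probe sets (1.7% lower and 2.19% higher). The median difference of the members was −0.56, 0.32 and −0.17 in these comparisons, taken in that order, and that of all named genes 0.03, −0.03 and 0.00. Any pair of these comparisons shares a group of arrays, so they are not independent of each other. Arrays of the groups compared did not overlap, with EGF plus gefitinib against EGF, for 21 members that were lower and 5 that were higher (26.3% and 30.8% of all probe sets). With EGF against control this held for 3 lower and 26 higher members (28.5% and 27% of all probe sets), and with EGF plus gefitinib against control for 15 lower and 9 higher members (24.7% and 25.6%). At an unadjusted p under 0.05 in limma, 23, 14 and 12 members passed in these comparisons, against 31.4%, 26.5% and 20.8% of all probe sets. In such bulk samples, fewer cells that express a gene and less RNA per cell cannot be told apart.

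Among the 9211 probe sets above the negative-control limit on at least 2 arrays, which hold 32 members, the background was higher. There, 18 members were lower and 4 higher with EGF plus gefitinib than with EGF (56.2% and 12.5%), against 28.2% and 24.9% of those probe sets. With EGF against control, 12 rose (37.5%) and 2 fell (6.25%), against 23.7% and 19.1%, and the share called in either direction, 43.8% of members, was near the 42.8% of those probe sets. Between EGF plus gefitinib and control, 9 were lower and 2 higher with EGF plus gefitinib (28.1% and 6.25%), against 14.2% and 13.4%.

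Leaving out an array leaves its group with a single array, whose spread is then taken from the other groups, and fewer calls were made over all probe sets. When either control or either EGF array was left out, limma called 0 members for EGF against control, with 12 to 14 at an unadjusted p under 0.05, while 3.38% to 3.91% of all probe sets were called and 20.2% to 20.8% had such a p. The differences of the 10 called members kept their sign, with HMGCS1 at 1.06 to 1.28, CYP51A1 at 0.79 to 0.86 and STARD4 at 0.63 to 1.04. Between EGF plus gefitinib and EGF, 8 to 13 members were still called when an array of these groups was left out (23.5% to 38.2%, against 8.81% to 13% of all probe sets), and 8 members were called without any single one of them, namely ACAT2, HMGCS1, MVD, NSDHL, HSD17B7, TMEM97, SREBF1 and ELOVL6. For EGF plus gefitinib against control, no member was still called when an array of these groups was left out. Few of all probe sets were called in those fits. The differences of the called members kept their sign, with ACAT2 at −1.33 to −1.18 and ELOVL6 at −1.89 to −1.45. TMEM97 ran from −1.61 to −1.03 and HSD17B7 from −1.002 to −0.924.

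**Figure D1:**
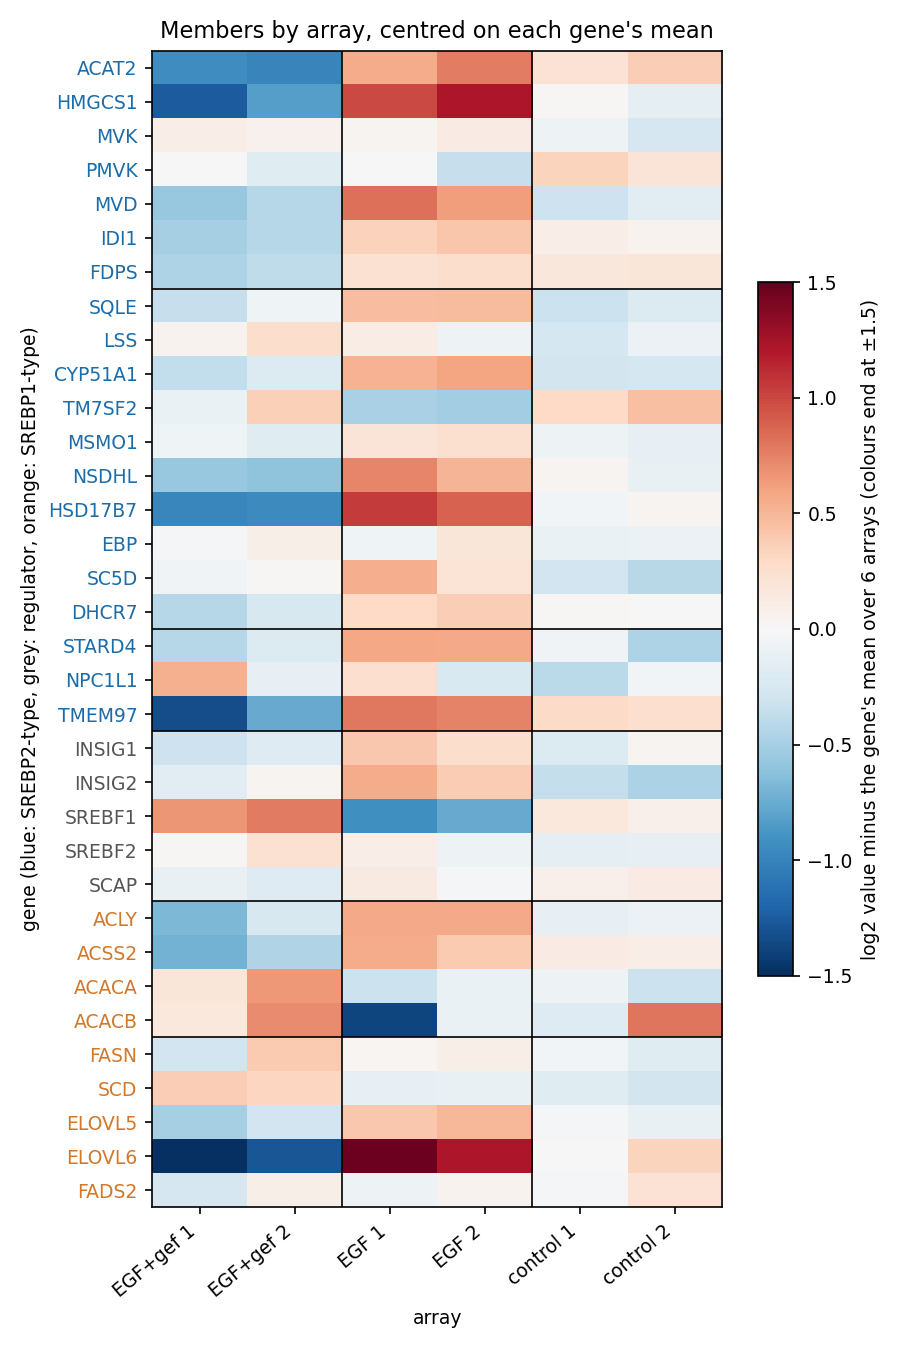
Each row is a measured member and each column an array, with the 2 EGF plus gefitinib arrays (EGF+gef) first, then the 2 EGF and the 2 control arrays; colour is the log2 value minus the gene's mean over the 6 arrays, red above and blue below. HMGCS1, HSD17B7, TMEM97 and ELOVL6 are blue with EGF plus gefitinib and red with EGF, and SREBF1 runs the other way.

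In the mevalonate pathway, 5 of 7 members were lower with EGF plus gefitinib than with EGF, and 2 of 7 rose with EGF against control. Over all probe sets these shares were 9.81% and 6.61%. Among probe sets above the negative-control limit on at least 2 arrays, tested alone, they were 28.2% and 23.7%. The member counts here are those of the fit to all probe sets, not of that filtered fit. The largest differences of this pathway in both comparisons were those of HMGCS1, the synthase that makes HMG-CoA. HMGCS1 measured 13.46 and 13.88 with EGF plus gefitinib, 15.70 and 15.92 with EGF, and 14.72 and 14.55 in control, so the 3 groups did not overlap and the gefitinib arrays were lowest. It was 4.41-fold lower with EGF plus gefitinib than with EGF (−2.14 ± 0.21, adjusted p = 0.00105) and 2.25-fold higher with EGF than in control (1.17 ± 0.21, adjusted p = 0.0151). ACAT2, the cytosolic thiolase that joins acetyl-CoA units at the start of the pathway, measured 11.39 and 11.33 with EGF plus gefitinib, 12.88 and 13.09 with EGF, and 12.54 and 12.69 in control. The EGF arrays of ACAT2 lay above the control arrays without overlap, but this difference did not pass the test (0.37 ± 0.18, adjusted p = 0.246). The EGF plus gefitinib arrays stood below both groups, by 3.09-fold against EGF (−1.63 ± 0.18, adjusted p = 0.00156) and 2.39-fold against control (−1.26 ± 0.18, adjusted p = 0.0189).

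MVD, the decarboxylase that yields isopentenyl diphosphate, measured 11.20 and 11.34 with EGF plus gefitinib, 12.59 and 12.39 with EGF, and 11.46 and 11.60 in control. Its EGF arrays stood above the other 4, by 2.34-fold over EGF plus gefitinib (−1.22 ± 0.18 for EGF plus gefitinib minus EGF, adjusted p = 0.00459) and 1.95-fold over control (0.96 ± 0.18, adjusted p = 0.0176). IDI1, which isomerises isopentenyl diphosphate, measured 15.11 and 15.17 with EGF plus gefitinib, 15.96 and 16.02 with EGF, and 15.71 and 15.66 in control. FDPS, which builds farnesyl diphosphate, measured 13.96 and 14.04 with EGF plus gefitinib, 14.64 and 14.67 with EGF, and 14.58 and 14.60 in control. Both were lower with EGF plus gefitinib than with EGF, IDI1 by 1.80-fold (adjusted p = 0.0136) and FDPS by 1.58-fold (adjusted p = 0.0334), and neither passed the test for EGF against control. The FDPS call was not made when any array of the compared groups was left out. The kinases that phosphorylate mevalonate, MVK and PMVK, passed no test. MVK differed by 0.00 between EGF plus gefitinib and EGF (95% interval −0.41 to 0.41), and PMVK by 0.08 (−0.39 to 0.55). With EGF against control PMVK differed by −0.44 ± 0.20 (adjusted p = 0.212), with arrays that did not overlap.

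Of the 10 measured members that turn squalene into cholesterol, 5 were lower with EGF plus gefitinib than with EGF and 0 higher in the limma test, while 3 rose and 1 fell with EGF against control. Over all probe sets 9.81% were lower in the first comparison, and 6.61% rose and 5.3% fell in the second. Among probe sets above the negative-control limit on at least 2 arrays, tested alone, these shares were 28.2%, 23.7% and 19.1%. Members of the branch were counted in the fit to all probe sets only. HSD17B7, a ketosteroid reductase of sterol demethylation, measured 9.49 and 9.51 with EGF plus gefitinib, 11.51 and 11.35 with EGF, and 10.43 and 10.50 in control. Its 3 groups were well apart, with EGF plus gefitinib 3.81-fold below EGF (−1.93 ± 0.17, adjusted p = 0.000751) and 1.95-fold below control (−0.96 ± 0.17, adjusted p = 0.0341), and EGF 1.96-fold above control (0.97 ± 0.17, adjusted p = 0.0143). NSDHL, a dehydrogenase of the same demethylation steps, measured 11.42 and 11.40 with EGF plus gefitinib, 12.73 and 12.51 with EGF, and 12.04 and 11.88 in control. It was 2.31-fold lower with EGF plus gefitinib than with EGF (adjusted p = 0.00467), and its difference of 0.66 ± 0.18 between EGF and control had an adjusted p = 0.0596.

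CYP51A1, the lanosterol demethylase, measured 13.90 and 14.07 with EGF plus gefitinib, 14.79 and 14.86 with EGF, and 13.99 and 14.01 in control. SQLE, the squalene epoxidase at the entry to the branch, measured 13.60 and 13.88 with EGF plus gefitinib, 14.40 and 14.41 with EGF, and 13.61 and 13.73 in control. In both genes only the EGF arrays stood apart, and the EGF plus gefitinib arrays overlapped the control arrays. CYP51A1 differed by −0.84 ± 0.17 between EGF plus gefitinib and EGF (adjusted p = 0.0155) and by 0.83 ± 0.17 between EGF and control (adjusted p = 0.0244). For SQLE these differences were −0.67 ± 0.18 (adjusted p = 0.0442) and 0.73 ± 0.18 (adjusted p = 0.0448). DHCR7, the reductase of the last step, measured 14.10 and 14.28 with EGF plus gefitinib, 14.82 and 14.89 with EGF, and 14.54 and 14.52 in control, and was 1.59-fold lower with EGF plus gefitinib than with EGF (adjusted p = 0.0369). Neither SQLE nor DHCR7 was called for EGF plus gefitinib against EGF when any array of these groups was left out.

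TM7SF2, a sterol reductase of the same branch, had the opposite pattern. It measured 11.45 and 11.90 with EGF plus gefitinib, 11.07 and 11.02 with EGF, and 11.84 and 11.99 in control, so that the EGF arrays were the lowest. It fell by 0.87 ± 0.21 with EGF against control (adjusted p = 0.0376), and was 0.64 ± 0.21 above EGF with EGF plus gefitinib (adjusted p = 0.0786). The other 4 members of the branch passed no test. SC5D, a sterol desaturase, was 0.72 ± 0.19 above control with EGF (adjusted p = 0.0536). LSS, the cyclase that forms lanosterol, and EBP, a sterol isomerase, differed by 0.14 (95% interval −0.30 to 0.58) and −0.02 (−0.44 to 0.40) between EGF plus gefitinib and EGF. MSMO1, a methylsterol oxidase, lay at 17.83 to 18.25 on the 6 arrays, near the highest value of the whole table (18.87), and differed by −0.35 ± 0.17 between EGF plus gefitinib and EGF (adjusted p = 0.217).

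Among the members that handle sterols in transit, TMEM97, a sterol-binding membrane protein also known as the sigma-2 receptor, measured 10.92 and 11.50 with EGF plus gefitinib, 13.04 and 12.99 with EGF, and 12.54 and 12.51 in control. Both EGF plus gefitinib arrays were far below the other 4 but differed from each other more than in the other groups. It was 3.50-fold lower with EGF plus gefitinib than with EGF (−1.81 ± 0.23, adjusted p = 0.00241) and 2.49-fold lower than in control (−1.32 ± 0.23, adjusted p = 0.0309). STARD4, a carrier of cholesterol between membranes, measured 9.06 and 9.28 with EGF plus gefitinib, 10.07 and 10.06 with EGF, and 9.44 and 9.03 in control. The EGF arrays were highest, by 1.86-fold over EGF plus gefitinib (−0.89 ± 0.20 for EGF plus gefitinib minus EGF, adjusted p = 0.0234) and 1.78-fold over control (0.83 ± 0.20, adjusted p = 0.0416), and neither call was made when any array of the groups compared was left out. NPC1L1, the cholesterol uptake protein of the gut, was within the negative-control range throughout (4.43 to 5.36).

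**Figure D2:**
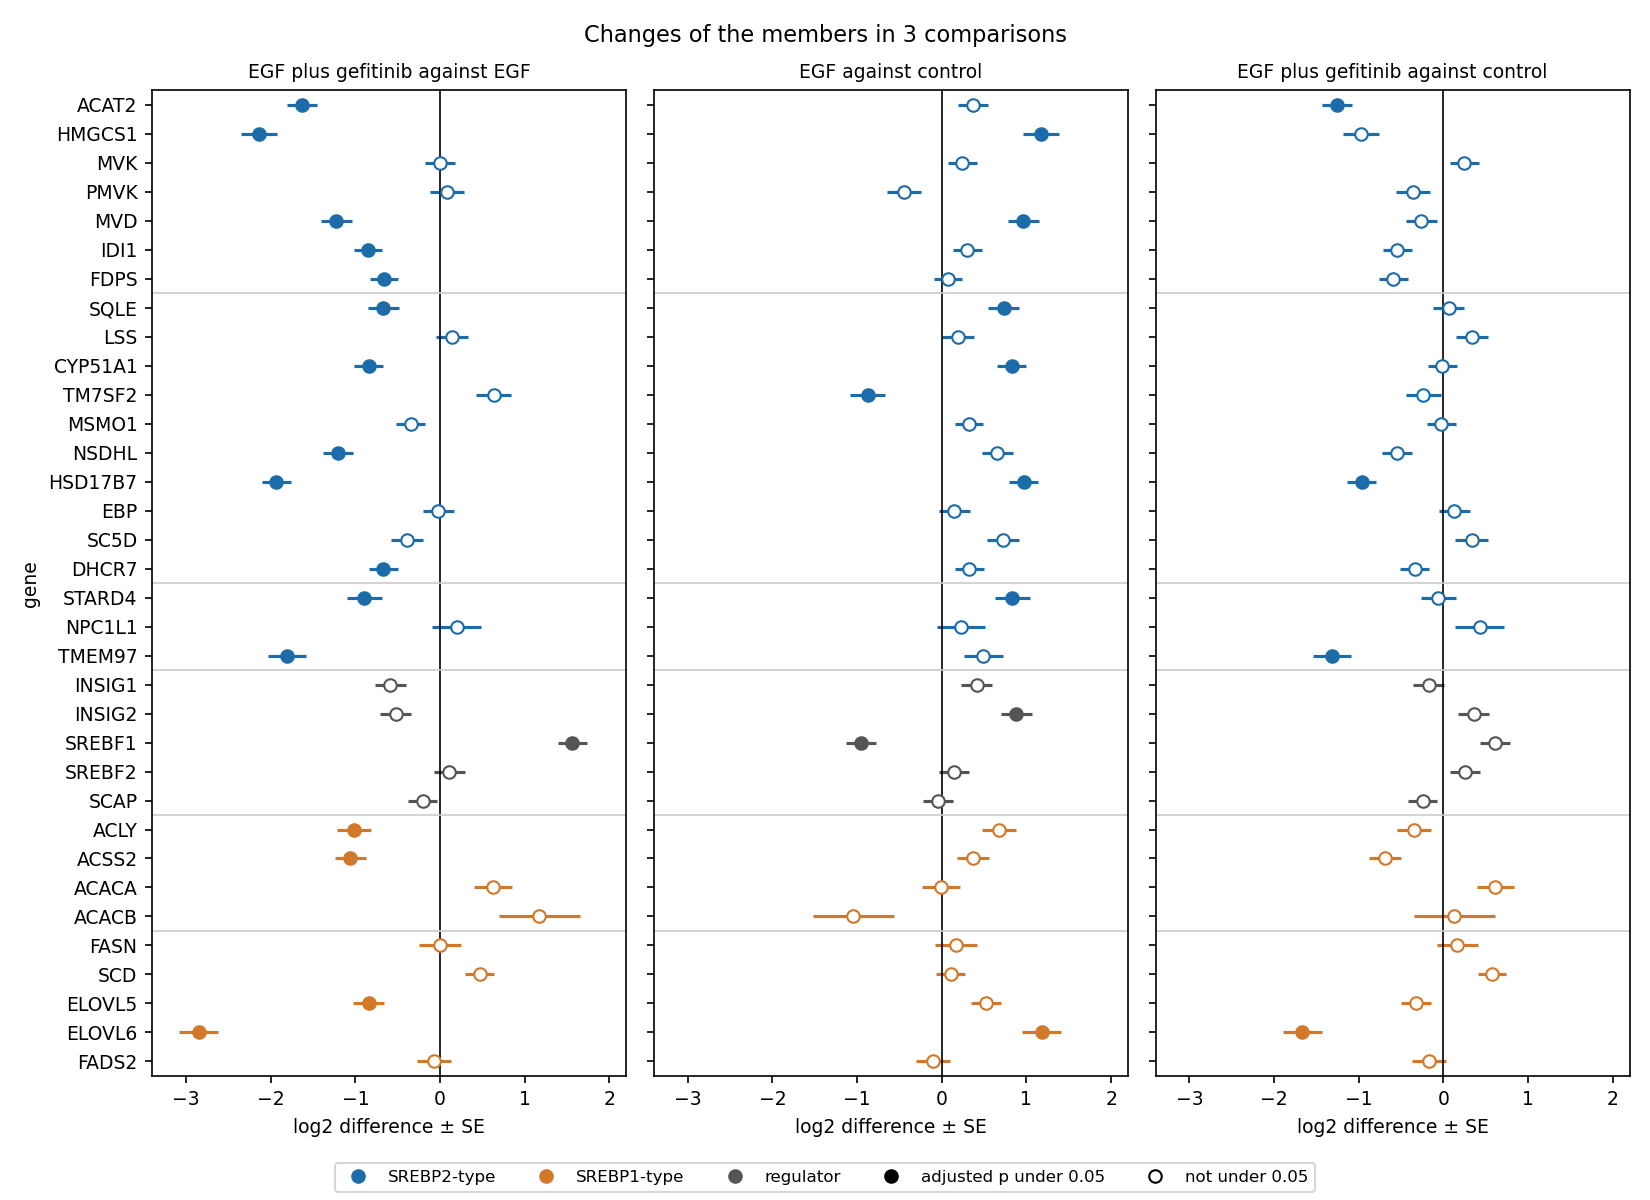
Points are log2 differences of group means and whiskers the limma SE (n = 2 arrays in a group), for 34 members in 3 comparisons; filled points have an adjusted p under 0.05, and grey lines part the roles. The filled points of EGF plus gefitinib against EGF lie left of 0 for 16 members and right of it for SREBF1.

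The promoters of the members that passed the test both for EGF against control and for EGF plus gefitinib against EGF are shown because SREBP factors are known to act there together with NF-Y, which binds CCAAT, and Sp1, which binds GGGCGG. There were 8 such members, and the windows of 7 are printed, each the 250 bases before the RefSeq gene start in GRCh38.p14, 5′ to 3′ on the strand of the gene. The windows are chr5:43313413-43313662, minus strand (HMGCS1), chr16:88663092-88663341, minus strand (MVD), chr7:92134478-92134727, minus strand (CYP51A1), chr1:162790452-162790701, plus strand (HSD17B7), chr5:111512536-111512785, minus strand (STARD4), chr4:110198616-110198865, minus strand (ELOVL6) and chr17:17836987-17837236, minus strand (SREBF1). Capitals mark matches on either strand to CCAAT, to GGGCGG or to ACNCCAC, a core of the classical sterol regulatory element.
HMGCS1: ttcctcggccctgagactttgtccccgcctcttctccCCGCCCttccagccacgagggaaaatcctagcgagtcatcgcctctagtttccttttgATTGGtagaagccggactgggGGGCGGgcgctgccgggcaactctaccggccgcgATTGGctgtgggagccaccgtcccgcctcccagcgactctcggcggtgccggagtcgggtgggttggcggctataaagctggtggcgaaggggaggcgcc
MVD: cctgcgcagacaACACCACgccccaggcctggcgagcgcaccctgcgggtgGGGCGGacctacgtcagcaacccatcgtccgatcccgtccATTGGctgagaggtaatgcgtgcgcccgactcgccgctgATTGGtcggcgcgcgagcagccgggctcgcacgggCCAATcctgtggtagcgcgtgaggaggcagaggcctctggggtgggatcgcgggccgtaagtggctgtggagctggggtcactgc
CYP51A1: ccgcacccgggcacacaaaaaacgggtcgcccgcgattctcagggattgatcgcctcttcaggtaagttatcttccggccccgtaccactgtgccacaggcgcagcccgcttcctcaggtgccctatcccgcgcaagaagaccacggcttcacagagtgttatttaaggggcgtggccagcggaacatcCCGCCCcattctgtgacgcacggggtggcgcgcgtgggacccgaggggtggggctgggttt
HSD17B7: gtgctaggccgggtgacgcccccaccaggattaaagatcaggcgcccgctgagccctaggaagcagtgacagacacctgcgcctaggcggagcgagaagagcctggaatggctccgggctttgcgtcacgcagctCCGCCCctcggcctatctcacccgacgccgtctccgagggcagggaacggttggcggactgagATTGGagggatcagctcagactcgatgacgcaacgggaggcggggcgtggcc
STARD4: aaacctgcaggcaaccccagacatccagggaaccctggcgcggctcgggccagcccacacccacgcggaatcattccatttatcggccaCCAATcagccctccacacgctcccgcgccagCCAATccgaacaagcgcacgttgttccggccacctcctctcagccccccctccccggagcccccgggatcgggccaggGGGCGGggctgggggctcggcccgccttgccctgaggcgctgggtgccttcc
ELOVL6: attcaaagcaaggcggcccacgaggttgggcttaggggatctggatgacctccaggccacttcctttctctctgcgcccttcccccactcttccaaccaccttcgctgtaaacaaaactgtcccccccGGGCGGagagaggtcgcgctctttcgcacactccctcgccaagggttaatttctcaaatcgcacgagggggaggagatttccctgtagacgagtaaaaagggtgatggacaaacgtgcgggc
SREBF1: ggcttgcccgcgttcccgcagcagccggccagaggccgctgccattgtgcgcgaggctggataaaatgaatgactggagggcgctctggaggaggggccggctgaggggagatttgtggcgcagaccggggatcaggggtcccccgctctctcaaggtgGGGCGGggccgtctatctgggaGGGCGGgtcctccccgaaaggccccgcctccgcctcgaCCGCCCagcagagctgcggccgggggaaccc
The window of MVD holds 3 CCAAT matches, those of HMGCS1 and STARD4 2 each and that of HSD17B7 1, and those of CYP51A1, ELOVL6 and SREBF1 hold 0. GGGCGG matches number 3 in SREBF1, 2 in HMGCS1 and 1 in each of the others, and the only ACNCCAC match is in MVD. Matches to different motifs shared no base in any member.

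A promoter entry was found for 31 of the 34 members. CCAAT was present on either strand in 15 of 18 SREBP2-type promoters (83.3%), 4 of 8 SREBP1-type promoters (50%) and 2 of 5 regulator promoters (40%), against 34.6% of the same windows of 14250 named genes of the array. GGGCGG was present in 16 of 18 SREBP2-type promoters (88.9%), 5 of 8 SREBP1-type promoters (62.5%) and all 5 regulator promoters, against 57% of named genes. ACNCCAC was present in 2 of 18, 2 of 8 and 2 of 5, against 12.8%. Among the members that were lower with EGF plus gefitinib than with EGF, 11 of 14 had CCAAT (78.6%), and among the remaining members 10 of 17 (58.8%). These sets differ in type, since of all 16 lower members 12 were SREBP2-type and 0 were regulators. The SREBP2-type promoters without CCAAT were those of IDI1 and CYP51A1, which were lower, and of PMVK, which was not. A link of CCAAT with the call was not tested. In the lower and the remaining members GGGCGG was present in 85.7% and 82.4%, and ACNCCAC in 21.4% and 17.6%. Windows of SQLE, ACAT2 and FASN were not analysed. These matches describe the letters of a short window and do not show binding.

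**Figure D3:**
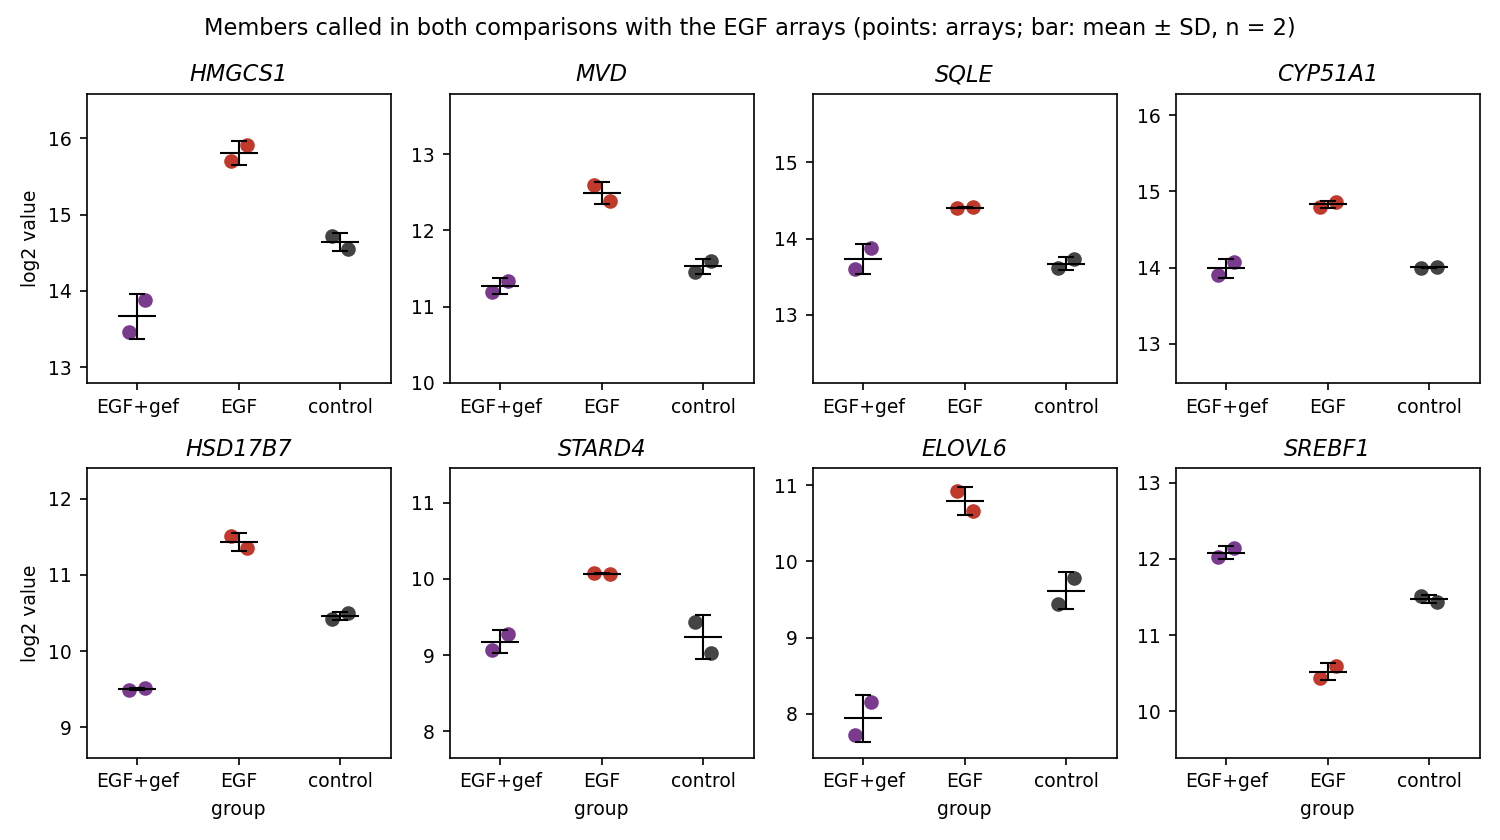
Log2 values of the 8 members that passed the test in both comparisons that use the EGF arrays; points are arrays, horizontal bars with whiskers are the mean ± SD (n = 2), the groups run from EGF plus gefitinib (EGF+gef) to EGF to control, and every panel spans the same range of log2 units. In 7 panels the EGF arrays are the highest, and in that of SREBF1 they are the lowest.

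Of the 5 regulators, SREBF1 had the largest differences. SREBF1, which encodes the SREBP1 precursors, measured 12.02 and 12.14 with EGF plus gefitinib, 10.44 and 10.60 with EGF, and 11.51 and 11.44 in control. The 3 groups did not overlap, with the EGF arrays lowest and the EGF plus gefitinib arrays highest. It was 2.96-fold higher with EGF plus gefitinib than with EGF (1.56 ± 0.17, adjusted p = 0.00161) and 1.94-fold lower with EGF than in control (−0.96 ± 0.17, adjusted p = 0.0156). EGF plus gefitinib and control differed by 0.61 ± 0.17 (adjusted p = 0.103). SREBF2, which encodes the SREBP2 precursor, measured 11.61 and 11.83 with EGF plus gefitinib, 11.70 and 11.52 with EGF, and 11.45 and 11.48 in control. Its differences did not pass the test, at 0.11 for EGF plus gefitinib against EGF (95% interval −0.32 to 0.54) and 0.15 for EGF against control (−0.28 to 0.57).

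SCAP, the escort, measured 9.39 and 9.30 with EGF plus gefitinib, 9.63 and 9.47 with EGF, and 9.57 and 9.61 in control, and passed no test. INSIG2, which retains SCAP, measured 10.11 and 10.31 with EGF plus gefitinib, 10.82 and 10.64 with EGF, and 9.91 and 9.79 in control, and rose 1.84-fold with EGF (0.88 ± 0.18, adjusted p = 0.0237). It was 0.52 ± 0.18 lower with EGF plus gefitinib than with EGF (adjusted p = 0.0935). INSIG1, its paralog and a classical SREBP target, measured 11.05 and 11.16 with EGF plus gefitinib, 11.77 and 11.62 with EGF, and 11.15 and 11.41 in control. The EGF arrays of INSIG1 were the highest, but the differences of −0.59 ± 0.18 for EGF plus gefitinib minus EGF (adjusted p = 0.0691) and 0.41 ± 0.18 for EGF minus control (adjusted p = 0.210) did not pass the test.

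The fatty acid members were divided. Of 9, 4 were lower with EGF plus gefitinib than with EGF and 1 rose with EGF against control, both times including ELOVL6, the elongase of saturated chains. Over all probe sets 9.81% were lower in the first comparison and 6.61% rose in the second. Among probe sets above the negative-control limit on at least 2 arrays, tested alone, these shares were 28.2% and 23.7%. The counts of fatty acid members are from the fit to all probe sets, so they have no like background there. ELOVL6 had the largest difference of the 34 measured members in each comparison. It measured 7.73 and 8.16 with EGF plus gefitinib, 10.92 and 10.67 with EGF, and 9.44 and 9.78 in control. The negative-control limits of the EGF plus gefitinib arrays were 7.65 and 7.29, so the first lay just above its limit. It was 7.21-fold lower with EGF plus gefitinib than with EGF (−2.85 ± 0.23, adjusted p = 0.000596), 3.18-fold lower than in control (−1.67 ± 0.23, adjusted p = 0.0175), and 2.27-fold higher with EGF than in control (1.18 ± 0.23, adjusted p = 0.0196).

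The enzymes that supply cytosolic acetyl-CoA were lower with EGF plus gefitinib than with EGF. ACLY, which splits citrate, measured 13.29 and 13.72 with EGF plus gefitinib, 14.53 and 14.52 with EGF, and 13.84 and 13.87 in control. ACSS2, which activates acetate, measured 10.75 and 11.01 with EGF plus gefitinib, 12.02 and 11.85 with EGF, and 11.58 and 11.55 in control. Both were lower with EGF plus gefitinib than with EGF, ACLY by 2.03-fold (−1.02 ± 0.20, adjusted p = 0.0134) and ACSS2 by 2.08-fold (−1.06 ± 0.19, adjusted p = 0.00846). With EGF against control they differed by 0.67 ± 0.20 (adjusted p = 0.0776) and 0.37 ± 0.19 (adjusted p = 0.265). ELOVL5, an elongase of polyunsaturated chains, measured 13.69 and 13.89 with EGF plus gefitinib, 14.59 and 14.68 with EGF, and 14.16 and 14.07 in control, and was 1.80-fold lower with EGF plus gefitinib than with EGF (adjusted p = 0.0170).

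The core enzymes of fatty acid synthesis did not pass the test in any comparison of the main fit. FASN, the synthase itself, measured 13.27 and 13.94 with EGF plus gefitinib, 13.58 and 13.64 with EGF, and 13.51 and 13.38 in control. Its EGF plus gefitinib arrays lay on either side of the EGF arrays, and the difference between these groups was 0.00 with a 95% interval of −0.58 to 0.58. ACACA, the carboxylase that makes malonyl-CoA, was 0.63 ± 0.22 above EGF with EGF plus gefitinib (adjusted p = 0.0999), and SCD, the stearoyl-CoA desaturase, 0.47 ± 0.17 (adjusted p = 0.102), in both cases with arrays that did not overlap. Each was called in this comparison in 2 of 6 alternative fits, not counting those with single arrays left out. FADS2, a desaturase of polyunsaturated chains, differed by −0.07 ± 0.20. ACACB, the mitochondrial carboxylase, lay within the negative-control range on all 6 arrays (2.84 to 5.02).

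The SREBP2-type members were then set beside the SREBP1-type members. With EGF plus gefitinib against EGF, 12 of 20 SREBP2-type members (60%) and 4 of 9 SREBP1-type members (44.4%) were lower and 0 of either were higher in the limma test, with 9.81% of all probe sets lower. Among probe sets above the negative-control limit on at least 2 arrays, tested alone, 28.2% were lower. The counts by type are from the fit to all probe sets. In the filtered set 18 of 32 members were lower (56.2%), not split by type here. The median difference was −0.67 for the SREBP2-type and −0.07 for the SREBP1-type members, and 0.03 for all named genes. With EGF against control, 6 of 20 SREBP2-type members (30%) rose and 1 fell, and 1 of 9 SREBP1-type members (11.1%) rose and 0 fell in the limma test, with medians of 0.35 and 0.17. Over all probe sets 6.61% rose and 5.3% fell, and in the filtered set 23.7% and 19.1%. In that set 12 of 32 members rose (37.5%) and 2 fell (6.25%). Not counting fits with single arrays left out, ACLY and ELOVL5 were called higher with EGF in 2 of 6 alternative fits. NSDHL and SC5D, both SREBP2-type, were so called in 3 of 6. The gap between the types in members that rose therefore depends on the fit. With EGF plus gefitinib against control, 3 of 20 and 1 of 9 were lower, with medians of −0.25 and −0.17. Over all probe sets 1.7% were lower, and in the filtered set 14.2%, where 9 of 32 members were lower (28.1%). The range of differences was wider than the gap between the medians in each comparison, from −2.14 to 0.64 in the SREBP2-type and from −2.85 to 1.17 in the SREBP1-type members for EGF plus gefitinib against EGF. The difference between the types was not tested.

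The SREBP1-type median rested on few genes, and the upper end of its range was ACACB, within the negative-control range. With EGF plus gefitinib against EGF it was −0.46 under the planned filter on dim probe sets, which left out ACACB. Keeping only members above the negative-control limit on all arrays, a choice made after the data were seen, leaves the same 32 members. Its −0.46 is therefore the same value and not a second check. With ACACB kept, the SREBP1-type median moved between −0.34 and 0.10 as single arrays were left out. It was 0.10 without EGF plus gefitinib 1 and −0.34 without EGF plus gefitinib 2. The SREBP2-type median stayed between −0.78 and −0.60. By array, the median deviation of SREBP2-type members from their own means was −0.40 and −0.21 with EGF plus gefitinib, 0.41 and 0.39 with EGF, and −0.05 and −0.09 in control, so the 3 groups did not overlap. For SREBP1-type members it was −0.28 and 0.09 with EGF plus gefitinib, 0.02 and 0.09 with EGF, and −0.05 and −0.09 in control. The EGF plus gefitinib arrays lay far apart, so that these groups overlapped. These medians include ACACB, within the negative-control range, which deviated by 0.16 and 0.71 with EGF plus gefitinib and −1.38 and −0.10 with EGF. The overlap of the EGF plus gefitinib arrays with the EGF arrays rests on its inclusion.

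**Figure D4:**
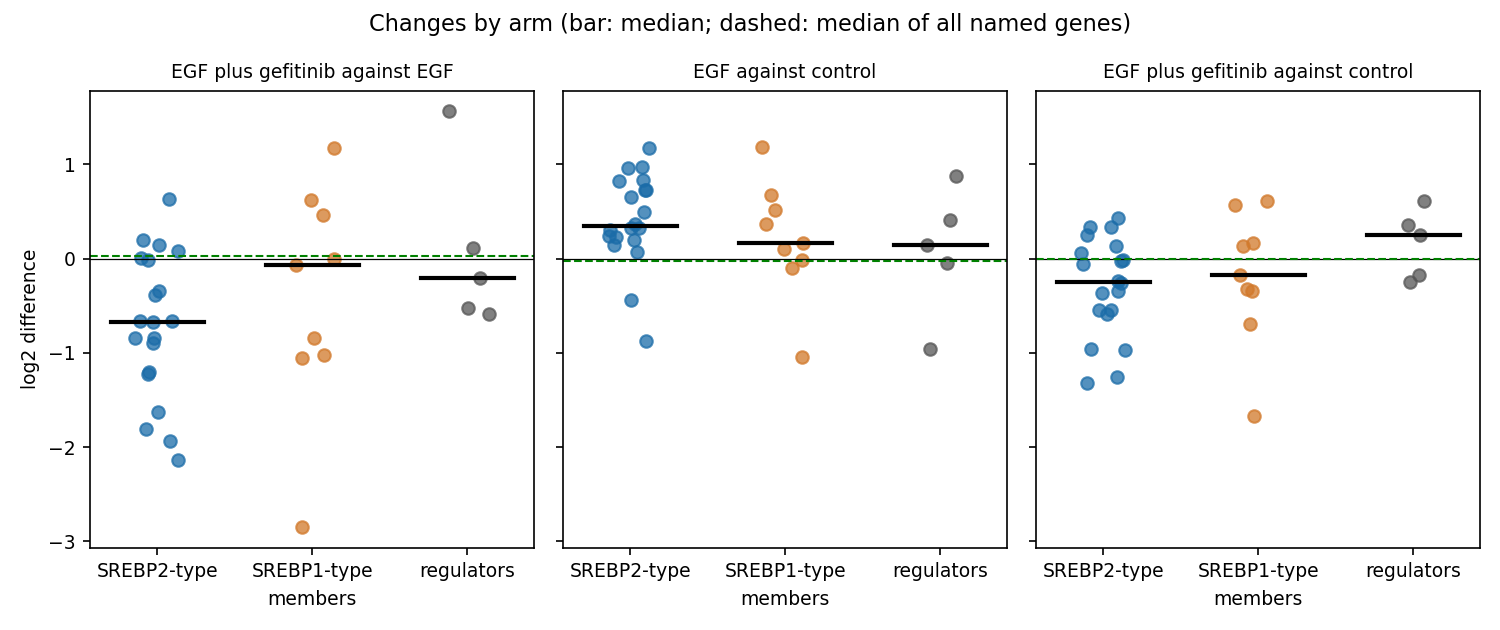
Each point is the log2 difference of a measured member, grouped as SREBP2-type (20), SREBP1-type (9) and regulators (5), in 3 comparisons; black bars are medians and the dashed line is the median of all named genes. For EGF plus gefitinib against EGF the SREBP2-type median is −0.67, while the SREBP1-type members spread on either side of their median of −0.07. The SREBP1-type median includes ACACB, which lay within the negative-control range on every array.

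A further list of 75 lipid genes outside the members, of which 63 were measured, had counts near the background, with 7 lower (11.1%) and 8 higher (12.7%) with EGF plus gefitinib than with EGF, and 4 higher and 4 lower with EGF than in control (6.35% each). Over all probe sets these shares were 9.81% and 8.86%, and 6.61% and 5.3%. In the sterol and prenyl side branches, 2 of 10 were lower with EGF plus gefitinib than with EGF and 0 higher in the limma test. These were PDSS1, which makes the side chain of coenzyme Q (−1.91 ± 0.20, adjusted p = 0.00124), and NUS1, a subunit of the dolichol-making prenyltransferase (−1.43 ± 0.18, adjusted p = 0.00238). NUS1 also rose with EGF against control (0.98 ± 0.18, adjusted p = 0.0154), and PDSS1 was lower with EGF plus gefitinib than in control (−1.31 ± 0.20, adjusted p = 0.0224). Of 7 genes of SREBP processing and sterol enzyme turnover, MBTPS1, the first of the proteases that cleave SREBPs, was higher (0.61 ± 0.17, adjusted p = 0.0441), and PAQR3, a Golgi anchor of SCAP, and UBE2G2, a ubiquitin-conjugating enzyme, were lower with EGF plus gefitinib than with EGF (−1.36 ± 0.21 with adjusted p = 0.00576, and −1.69 ± 0.35 with adjusted p = 0.0156). The EGF plus gefitinib arrays of UBE2G2 lay far apart (SD 0.78, n = 2). PAQR3 rose with EGF against control (1.39 ± 0.21, adjusted p = 0.00861).

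Among 13 genes of sterol storage, traffic and efflux was NPC1, the lysosomal cholesterol exporter. It averaged 12.91 ± 0.03 with EGF plus gefitinib, 11.80 ± 0.07 with EGF and 11.23 ± 0.07 in control (SD, n = 2), and was higher with EGF plus gefitinib than with EGF (1.11 ± 0.17, adjusted p = 0.00518) and than in control (1.68 ± 0.17, adjusted p = 0.00915). EGF and control differed by 0.57 ± 0.17 (adjusted p = 0.0765), with arrays that did not overlap. SOAT1, which esterifies cholesterol for storage, rose with EGF against control (0.90 ± 0.17, adjusted p = 0.0183). ABCG1, a sterol exporter, was called higher with EGF plus gefitinib than with EGF but was below the negative-control limit in either group. Of 20 further genes of fatty acid and glycerolipid synthesis, ACSL1, an acyl-CoA synthetase, was higher with EGF plus gefitinib than with EGF (1.76 ± 0.18, adjusted p = 0.00126), while ACSL5, AGPAT2 and DGAT2, which activate and esterify fatty acids, were lower by −1.11 ± 0.19, −0.94 ± 0.17 and −0.97 ± 0.21. ELOVL4, another elongase, rose with EGF against control (1.23 ± 0.22, adjusted p = 0.0144). Of 13 genes of fatty acid breakdown and lipid droplets, 4 fell with EGF against control and 4 were higher with EGF plus gefitinib than with EGF (30.8% in each case), but several of these values lay at background. Over all probe sets these shares were 5.3% and 8.86%. Among probe sets above the negative-control limit on at least 2 arrays, tested alone, they were 19.1% and 24.9%. The counts of these 13 genes are from the fit to all probe sets. HADHB, a subunit of the mitochondrial trifunctional protein, fell by 0.95 ± 0.17 with EGF (adjusted p = 0.0136) and was 0.67 ± 0.17 higher with EGF plus gefitinib than with EGF (adjusted p = 0.0311). ACADM, an acyl-CoA dehydrogenase, fell by 0.92 ± 0.18 with EGF (adjusted p = 0.0210). PNPLA2, the triglyceride lipase, lay within the negative-control range with EGF and was at least 1.79-fold higher with EGF plus gefitinib and at least 1.53-fold higher in control. PPARG, a regulator of fat storage genes, also lay there with EGF and was at least 1.31-fold higher with EGF plus gefitinib and at least 1.44-fold higher in control. PPARA, a regulator of fatty acid oxidation genes, was called higher with EGF plus gefitinib than with EGF but was below the limit in both groups. With EGF plus gefitinib against control, ACSL1 was higher (1.07 ± 0.18) and AGPAT2 (−0.95 ± 0.17) and ACADVL, another acyl-CoA dehydrogenase (−1.16 ± 0.22), were lower.

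The members that were lower with EGF plus gefitinib than in untreated cells were ACAT2, HSD17B7, TMEM97 and ELOVL6, whose values are given above. HMGCS1 came next, 1.96-fold lower with an adjusted p = 0.0542. CYP51A1, SQLE and STARD4, in which EGF plus gefitinib and control arrays overlapped, differed by −0.01 (95% interval −0.42 to 0.39), 0.06 (−0.37 to 0.49) and −0.06 (−0.54 to 0.42). Among SREBP1-type members that did not pass the test, ACSS2 differed by −0.69 ± 0.19 (adjusted p = 0.0894) and SCD by 0.57 ± 0.17 (adjusted p = 0.108). For 6 members, RefSeq lists pseudogenes under the same name stem, namely FDPS (10), IDI1 and CYP51A1 (3 each), HSD17B7 and TMEM97 (2 each) and SCD (1). Probe sequences were not used here, so a share of such copies in the values of these genes is uncertain.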

How the data were processed

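Total RNA of 6 samples was labelled with biotin using an Affymetrix kit, per the labels' protocols, and measured on 1 array each. The deposited log2 values come from the authors' Transcriptome Analysis Console, named in the submitters' processing notes. Its version and its correction, summary and normalization steps were not given in the sources used. The values were used as deposited. Of 24351 rows, 2903 control probe sets were left out and 21448 transcript probe sets were tested with no filter. The platform annotation gave 1 symbol for 17709 of them and did not list 3739. For 20 genes with several probe sets the brightest stood for the gene. Groups were compared with limma 3.58.1 (lmFit, eBayes) in R 4.3.3, in 1 fit of 3 group means with 3 residual and 4.22 prior degrees of freedom, two-sided, with Benjamini-Hochberg adjustment. The fit was tested on simulated data. A fold is written "at least" where the dimmer group lay at or below the negative-control limit on both arrays, and is then computed against that limit. The number of arrays limits the precision.

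The members and lists were chosen with earlier results of these data known. By the rule for named genes, any member could be named, with values per array for those past the test in at least 1 comparison and for the 5 regulators; FASN was added after its values were seen. Of each sub-list of other lipid genes, up to 3 called genes per direction and comparison with the largest moderated statistic could be named, and not all of them are. Alternatives were a fit of the groups compared, quantile normalization, median centring, a filter on dim probe sets, an intensity trend, the replicate block, each array left out, and another split of the regulators. Promoter sequences are RefSeq's (GRCh38.p14), the first entry per gene.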

Additional observations from a re-analysis of the deposited data

How the results depend on the processing

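For EGF against control, 10 members were called, against 9 with only the groups compared in the fit, 8 with quantile normalization, 12 with median centring and 14 of 32 with dim probe sets left out. With an intensity trend 18 were called, and 0 to 9 with single arrays left out. Over all probe sets 11.9% were called, against 11.7%, 11.8%, 12.1%, 42.8% and 19.8% in the first 5 of these settings and 3.38% to 11.7% with single arrays left out. For EGF plus gefitinib against EGF the count of 17 became 14, 14, 18 and 22 of 32 under the same settings and 23 with the trend, and 8 to 14 with single arrays left out. Over all probe sets 18.7% were called, against 15.9%, 18.4%, 18.6%, 53.2% and 25.5%, and 8.81% to 15.9% with single arrays left out. Against control, EGF plus gefitinib had a count of 4 that became 2 with only the groups compared, 11 with dim probe sets left out, 13 with the trend, and 0 to 2 with single arrays left out, while both scalings gave 4. The shares of all probe sets were 1.15%, 27.6% and 12.9% in the first 3 of these, against 3.89%. Fits that leave out an array of the third group equal the fit of the groups compared. No called member turned its sign in any of these fits.

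No shift shared by arrays of the same replicate number was seen. Deviations from the group means correlated at −0.04, 0.00 and 0.02 over probe sets in the 3 comparisons. Whether such arrays were handled together cannot be read from these correlations. With the replicate block, 8, 15 and 2 members were called. The shares of all probe sets called also fell, to 9.51%, 16.3% and 1.55% from 11.9%, 18.7% and 3.89%. Calls not made under it were SQLE, TM7SF2 and STARD4 for EGF against control, FDPS, SQLE and DHCR7 for EGF plus gefitinib against EGF, and HSD17B7 and TMEM97 for EGF plus gefitinib against control. ACACB, within the negative-control range, was added in the first and second.

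The SREBP2-type and SREBP1-type medians for EGF against control were 0.41 and 0.22 with median centring, and 0.37 and 0.27 with dim probe sets left out. Keeping members above the limit on all arrays, a setting added after the data were seen, leaves the same members and so the same values. With single arrays left out the SREBP2-type median ran from 0.34 to 0.43 and the SREBP1-type median from 0.10 to 0.23. For EGF plus gefitinib against EGF the SREBP1-type median was −0.46 without dim members, 0.00 with quantile normalization and −0.34 to 0.10 with single arrays left out, and the SREBP2-type median −0.78 to −0.60. Against control they were −0.31 to −0.13 (SREBP2-type) and −0.34 to 0.00 (SREBP1-type) with single arrays left out. The causes of these shifts were not tested.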
